A study of Drosophila melanogaster with 6 samples.

Results

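The 6 genes described here encode 3 larval serum proteins (Lsp2, Lsp1beta and Lsp1gamma), 2 fat body proteins (Fbp1 and Fbp2) and the ecdysone-induced transcription factor Eip74EF. They were taken by gene symbol from the authors' deposited table of their own comparison, Eip74EF with both of its probe sets, which gave 7 of the 260 probe sets in that table and 7 of the 18769 measured. The table prints both Lsp1 genes as "Lsp1", so they were told apart by their CG numbers, CG4178 for Lsp1beta and CG6821 for Lsp1gamma. Because the authors had selected the table on these same arrays, by fold and q-value, a rise or a fall of its members is in part a consequence of that selection, and the tests below are no independent evidence of direction.

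Larval serum proteins belong to the hexamerins, storage proteins of insects. The larval fat body makes them under nutritional and hormonal control, releases them into the hemolymph and takes them back before metamorphosis, when they serve as a store of amino acids. Fbp1 is the fat body receptor that takes up larval serum protein 1, and the steroid hormone ecdysone controls its expression and its processing. Eip74EF is one of the early genes that ecdysone switches on directly.

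The arrays measured total RNA of whole adult Drosophila melanogaster aged 7 days on standard food, in 3 samples labelled DHR96 mutant and 3 samples of Canton S, a wild-type laboratory strain that the design text describes as genetically matched. DHR96, now named Hr96, encodes a nuclear receptor. The labels do not give the mutant allele, the sex of the flies or whether replicates came from independent fly collections, so each p-value reflects the spread among these arrays alone, part of which could be technical. RNA of whole animals does not show in which tissue a transcript changed, and more cells of a type cannot be told apart from more RNA per cell.

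The targeted gene was not lower in the arrays labelled DHR96 mutant. Hr96 read 977, 985 and 928 there and 527, 498 and 546 in Canton S, and since the position of its probe set relative to the mutation is not known, it does not check the labels. Array medians lay between 474 and 488. The Dap poly-A spike-in, a bacterial RNA added before labelling, read 473 and 519 on DHR96 mutant replicates 2 and 3, against 1217 on DHR96 mutant replicate 1 and 1007 to 1208 in Canton S, so these 2 arrays stand apart and results are also given without them. Across all probe sets 1306 passed a limma adjusted p of 0.05, of which 47.2% read higher in the mutant group, or 57.6% after quantile normalization.

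All 7 probe sets read higher on every array labelled DHR96 mutant than on any Canton S array. Groups that do not overlap in that direction were found for 13.9% of all probe sets. Of the 7, 6 passed limma's adjusted threshold of 0.05 as higher, against 3.29% of all probe sets, and Lsp1beta did not pass. The median log2 difference of the 7 was 1.07, against 0.00 (-0.0015) over all probe sets and 0.54 over the 180 probe sets that the table lists as higher. The choice of the members by the authors' table fixes these counts in large part.

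**Figure D1:**
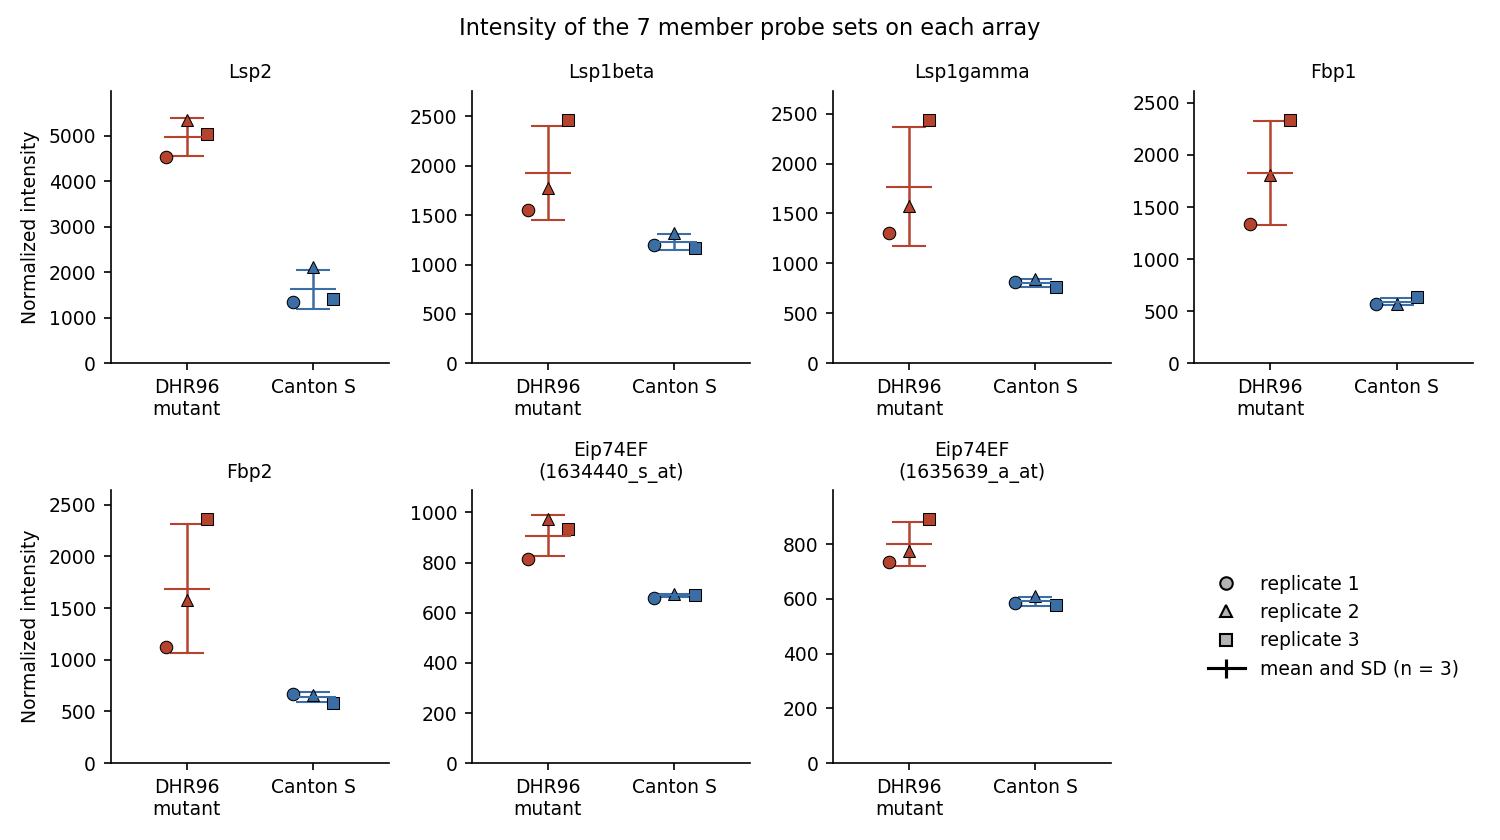
Normalized intensity (linear axis from 0) of the 7 probe sets on each array, with the 3 DHR96 mutant arrays at left and the 3 Canton S arrays at right of each panel; symbols mark the replicate, and bars give the mean and SD (n = 3 each). No panel has overlapping groups, and replicate 1 is the lowest of the DHR96 mutant arrays in all 7.

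Among the serum proteins, Lsp2 had the largest difference. Its intensity was 4535, 5348 and 5026 on DHR96 mutant replicates 1, 2 and 3, against 1346, 2112 and 1413 on Canton S replicates 1, 2 and 3. The mutant arrays lay close together, within 1.18-fold, whereas Canton S replicate 2 stood above the other two and the Canton S arrays spanned 1.57-fold. Lsp2 rose to 4969 ± 409.6 in the arrays labelled DHR96 mutant, against 1624 ± 425 in Canton S (SD, n = 3 each), higher by 1.63 on the log2(intensity + 16) scale used for all log2 differences here (SE 0.158, limma adjusted p = 0.00307). It ranked 4th of the 18769 probe sets by that difference.

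Lsp1gamma, a subunit of larval serum protein 1, read 1300, 1573 and 2438 on DHR96 mutant replicates 1, 2 and 3, against 817, 844 and 762 on the Canton S arrays. Here the spread lay in the mutant arrays, where replicate 3 was 1.88-fold above replicate 1, while the Canton S arrays kept within 1.11-fold. Lsp1gamma rose to 1770 ± 594, against 808 ± 41.7 in Canton S (SD, n = 3 each), which is 1.07 on the log2 scale with SE 0.198 (limma adjusted p = 0.0242).

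Lsp1beta, another subunit of the same protein, read 1552, 1774 and 2465 on DHR96 mutant replicates 1, 2 and 3, against 1194, 1322 and 1170 on the Canton S arrays. Replicate 3 was again the highest mutant array and replicate 1 the lowest, 1.17-fold above the highest Canton S array. The group means were 1930 ± 476 in the arrays labelled DHR96 mutant and 1228 ± 81.6 in Canton S (SD, n = 3 each). The log2 difference of 0.62 (SE 0.151) missed the threshold narrowly (limma adjusted p = 0.0514). Lsp1alpha, the remaining subunit gene of larval serum protein 1, is not in the deposited table and was not analysed here. Since probe sequences were not used here, signal shared between the related Lsp1 transcripts was not checked.

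Within each array, the Lsp1 probe sets can be set against each other as a ratio. The log2 ratio of Lsp1gamma to Lsp1beta was -0.25, -0.17 and -0.016 on DHR96 mutant replicates 1, 2 and 3, against -0.54, -0.64 and -0.61 on the Canton S arrays. The 2 sets of ratios did not overlap, and the log2 difference of Lsp1gamma exceeded that of Lsp1beta by 0.45 (SE 0.0755). The exact permutation p (two-sided) was 0.1, the smallest that 3 arrays against 3 allow, so this design cannot take it below 0.05.

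The fat body proteins rose by amounts near that of Lsp2. Fbp1, the uptake receptor, read 1337, 1812 and 2338 on DHR96 mutant replicates 1, 2 and 3, against 574, 570.2 and 637 on the Canton S arrays. Even its lowest mutant array was 2.098-fold above its highest Canton S array. Fbp1 rose to 1829 ± 501, against 594 ± 37.6 in Canton S (SD, n = 3 each), which is 1.56 on the log2 scale with SE 0.174 (limma adjusted p = 0.00495).

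Fbp2, a fat body protein related to alcohol dehydrogenase, read 1123, 1580 and 2357 on DHR96 mutant replicates 1, 2 and 3, against 671, 657 and 583 on the Canton S arrays. It had the widest spread of the members among the mutant arrays, with replicate 3 at 2.098-fold the level of replicate 1. Fbp2 rose to 1687 ± 624, against 637 ± 47.2 in Canton S (SD, n = 3 each), which is 1.32 on the log2 scale with SE 0.228 (limma adjusted p = 0.0202).

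Eip74EF, which encodes a transcription factor with an ETS DNA-binding domain, had the smallest log2 differences of the members and, in Canton S, the smallest spread. Its probe set 1634440_s_at, listed under a cDNA clone, read 816, 972 and 935 on DHR96 mutant replicates 1, 2 and 3, against 661, 674 and 671 on the Canton S arrays. Its probe set 1635639_a_at, listed under CG32180, read 735, 776 and 889.8 on the mutant arrays, against 586, 609 and 577 on the Canton S arrays. In both, the lowest mutant array was 1.21-fold above the highest Canton S array. The suffixes of the IDs mark probe sets that match several transcripts, and RefSeq lists 5 for Eip74EF, so the values do not separate its isoforms. Signal from transcripts of other genes was not checked.

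Both Eip74EF probe sets passed with nearly the same size of change. The first rose to 908 ± 81.4, against 669 ± 7.27 in Canton S (SD, n = 3 each), which is 0.43 on the log2 scale with SE 0.0648 (limma adjusted p = 0.0132). The second rose to 800.2 ± 80.2, against 591 ± 16.7 in Canton S (SD, n = 3 each), which is 0.42 on the log2 scale with SE 0.0703 (limma adjusted p = 0.0177). Their log2 differences were 0.0045 apart (SE 0.0765, exact permutation p = 0.9, two-sided). In the authors' deposited table they stand at folds of 1.357 and 1.354 and a q-value of 0.649%, near the smallest fold listed there, 1.301.

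Ordered by log2 difference, the members ran Lsp2, Fbp1, Fbp2, Lsp1gamma, Lsp1beta and Eip74EF. Most neighbours in that order were not separated beyond their spread. Lsp2 exceeded Fbp1 by 0.069 (SE 0.302, exact permutation p = 1) and Fbp1 exceeded Fbp2 by 0.24 (SE 0.137, exact permutation p = 0.2). Lsp1beta exceeded the first Eip74EF probe set by 0.19 (SE 0.174, exact permutation p = 0.4). Fbp2 exceeded Lsp1gamma by 0.25 (SE 0.0708, exact permutation p = 0.1). In that pair the log2 ratios within arrays did not overlap, at -0.21 to 0.0061 on the mutant arrays and -0.38 to -0.28 in Canton S. With the pairs given above these are 6 comparisons, whose adjusted exact permutation p was 0.3 or more throughout.

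The order of the mutant arrays was shared. DHR96 mutant replicate 1 was the lowest mutant array for all 7 probe sets, and replicate 3 the highest for 5 of them; over all probe sets replicate 1 was the lowest for 27.5% and replicate 3 the highest for 32.7%. Among the other 173 probe sets that the table lists as higher, replicate 1 was the lowest for 60.1% and replicate 3 the highest for 57.2%. In Canton S, replicate 2 was the highest array for 5 of the 7, for 37.9% of all probe sets and for 54.3% of those 173.

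**Figure D2:**
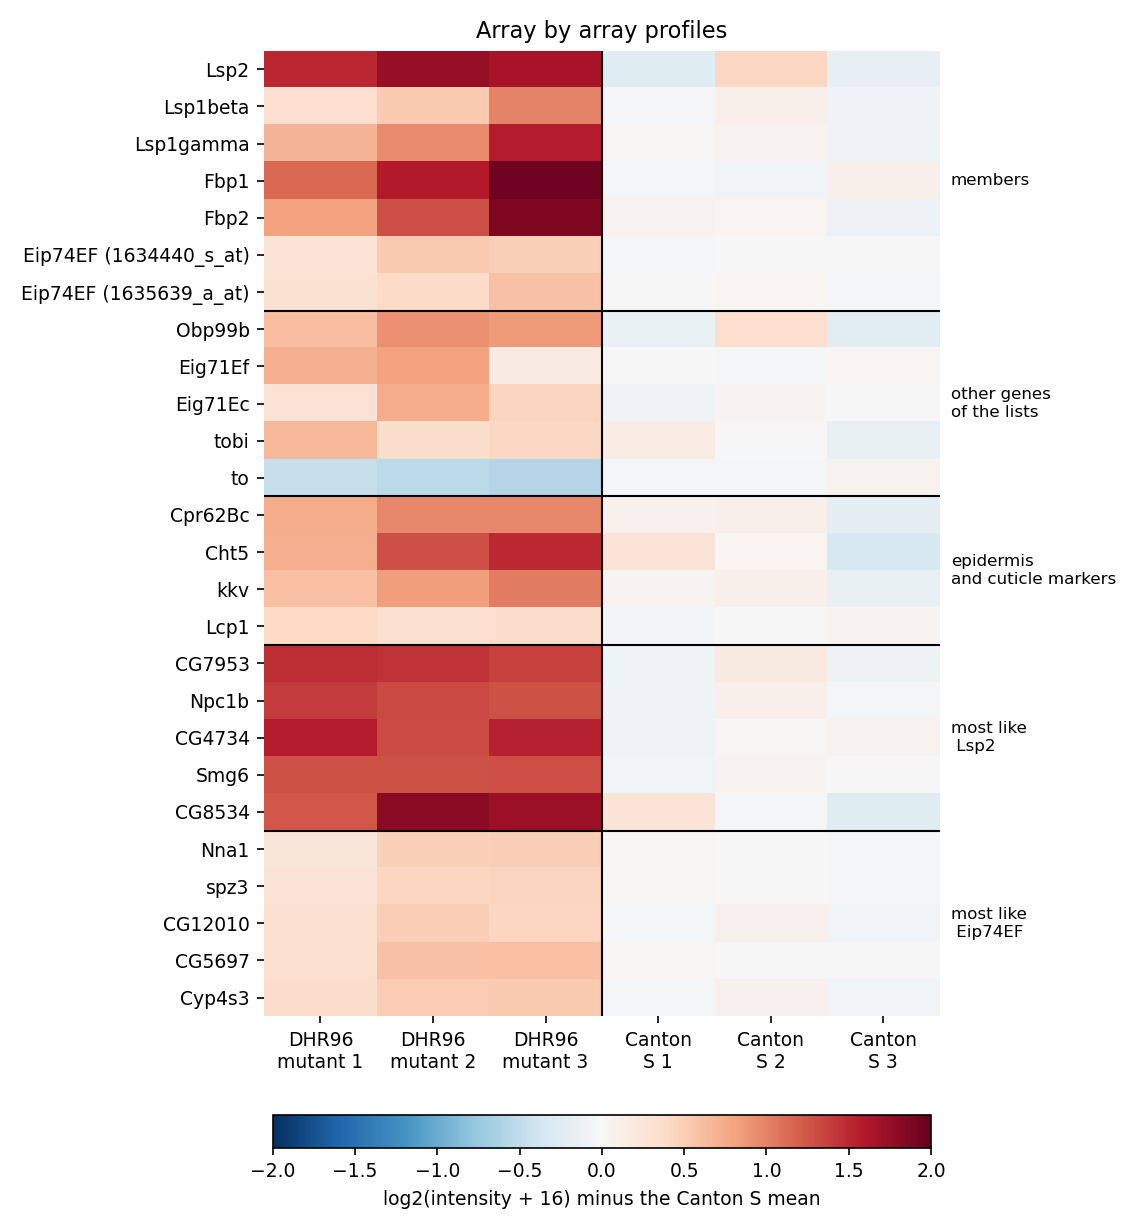
Log2(intensity + 16) minus the mean of the 3 Canton S arrays, by array (columns, DHR96 mutant at left), for the members, the other listed genes of the pathway lists, the epidermis and cuticle markers, and the 5 genes nearest in profile to Lsp2 and to Eip74EF. Lsp1beta, Lsp1gamma, Fbp1 and Fbp2 are darkest on DHR96 mutant replicate 3 (1.00, 1.58, 1.95 and 1.86), Lsp2 is nearly even over the mutant arrays, and takeout (to) is below the Canton S mean.

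The SD of log2(intensity + 16) over the mutant arrays was 0.53 for Fbp2, 0.46 for Lsp1gamma, 0.40 for Fbp1 and 0.34 for Lsp1beta. The median over all probe sets was 0.052, and these 4 lay above the 98th percentile. Over the Canton S arrays the same 4 had SDs of 0.074 to 0.11, between the 64.2 and 83.0 percentiles. Lsp2 had the opposite pattern, with an SD of 0.12 over the mutant arrays and 0.35, at the 99.0 percentile, over the Canton S arrays. Eip74EF had 0.13 and 0.14 in its mutant arrays and 0.015 and 0.039 in Canton S.

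**Figure D3:**
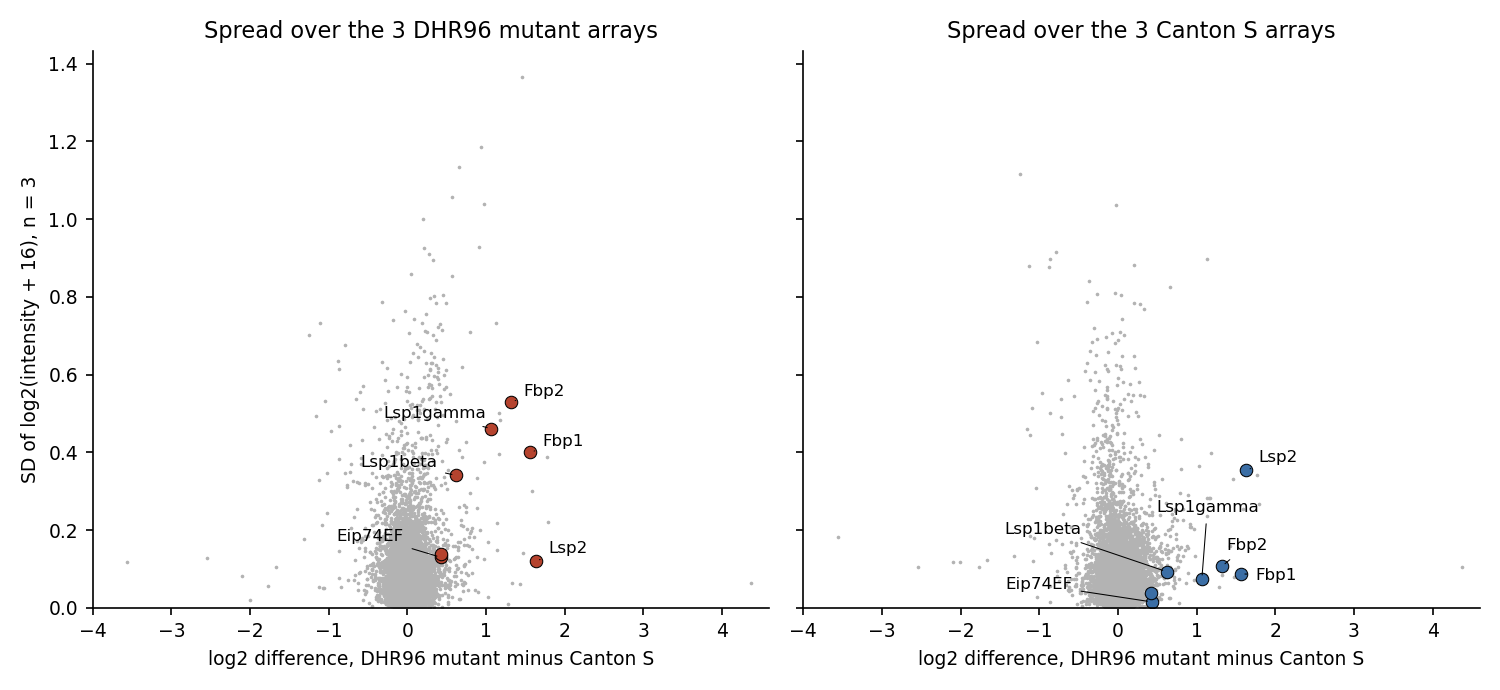
SD of log2(intensity + 16) over 3 arrays (vertical) against the log2 difference, DHR96 mutant minus Canton S (horizontal), for all probe sets (grey) and the members (coloured), over the DHR96 mutant arrays at left and the Canton S arrays at right. Fbp2, Lsp1gamma, Fbp1 and Lsp1beta have SDs of 0.34 to 0.53 over the mutant arrays, while in Canton S the largest member SD is the 0.35 of Lsp2.

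The 2 mutant arrays with low spike-in signal were also those with the higher member values. On DHR96 mutant replicate 1, whose spike-ins read like those of Canton S, Lsp2 exceeded the Canton S mean by 1.503 on the log2 scale, 92.1% of its difference over all arrays. The excess was smaller relative to the full difference for the other members: 1.15 (73.7%) for the receptor gene Fbp1, 0.81 (61.0%) for Fbp2, 0.68 (63.4%) and 0.34 (54.1%) for Lsp1gamma and Lsp1beta, and 0.28 (65.7%) and 0.31 (72.8%) for the Eip74EF probe sets. With the spike-in split as a block, 0 of the 7 passed limma's adjusted threshold, against 0.0799% of all probe sets called as higher. In that block fit 6 had an unadjusted limma p under 0.05, all but Lsp1beta. So did 1987 of all 18769 probe sets, counted in either direction. With those 2 arrays left out instead, a fit in which the lone mutant array is assumed to vary like Canton S put 3 of the 7 past the threshold, Fbp1, Fbp2 and Lsp1gamma, against 0.176% of all probe sets. That assumption goes against the measured spread of these 3 genes, whose log2 SDs over all mutant arrays were 0.40, 0.53 and 0.46, against 0.088, 0.11 and 0.074 in Canton S, so these calls carry no weight. The ratios of 3' to 5' control signal, a sign of RNA quality, also differed between arrays. For GAPDH they were 1.35, 1.42 and 1.36 on DHR96 mutant replicates 1, 2 and 3, against 1.31, 1.35 and 1.3 on the Canton S arrays, so that mutant replicates 2 and 3 lay above every Canton S array and mutant replicate 1 was the lowest of its group, as for the members. For actin they were 2.46, 2.61 and 2.31 on the mutant arrays, against 2.23, 2.35 and 2.37 in Canton S, and for eIF-4a 2.41, 2.7 and 2.27, against 2.21, 2.51 and 2.38. In these 2 controls mutant replicate 3 was the lowest of its group. The part of RNA quality in the member values was not tested.

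The calls also changed when 1 Canton S array was left out and with the variance model. With Canton S replicate 1 left out, the log2 differences of Fbp2, Lsp1gamma and Lsp2 were 1.36, 1.08 and 1.51. Over all arrays they were 1.32, 1.07 and 1.63. Fewer arrays also leave fewer degrees of freedom. Without Canton S replicate 1, 2 of the 7, Lsp2 and Fbp1, passed (limma adjusted p = 0.0159 and 0.0326; 0.98% of all probe sets were then called as higher), and without Canton S replicate 3 these and the first Eip74EF probe set did (limma adjusted p = 0.0149, 0.0209 and 0.0431; 1.5% of all probe sets). Without Canton S replicate 2, 4 passed, and Fbp2, Lsp1gamma and Lsp1beta did not (limma adjusted p = 0.0521, 0.0583 and 0.0875). Over all probe sets 803 were then called, 57.7% of them as higher. With robust variances 4 passed, against 3.67% of all probe sets, and Fbp2 and Lsp1gamma did not (limma adjusted p = 0.0726 and 0.0805). Without DHR96 mutant replicates 1, 2 and 3 in turn, 7, 6 and 7 passed, against 1.45%, 1.79% and 1.41% of all probe sets, with Lsp1beta at a limma adjusted p of 0.0427 without DHR96 mutant replicate 3, where its log2 difference was 0.43.

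**Figure D4:**
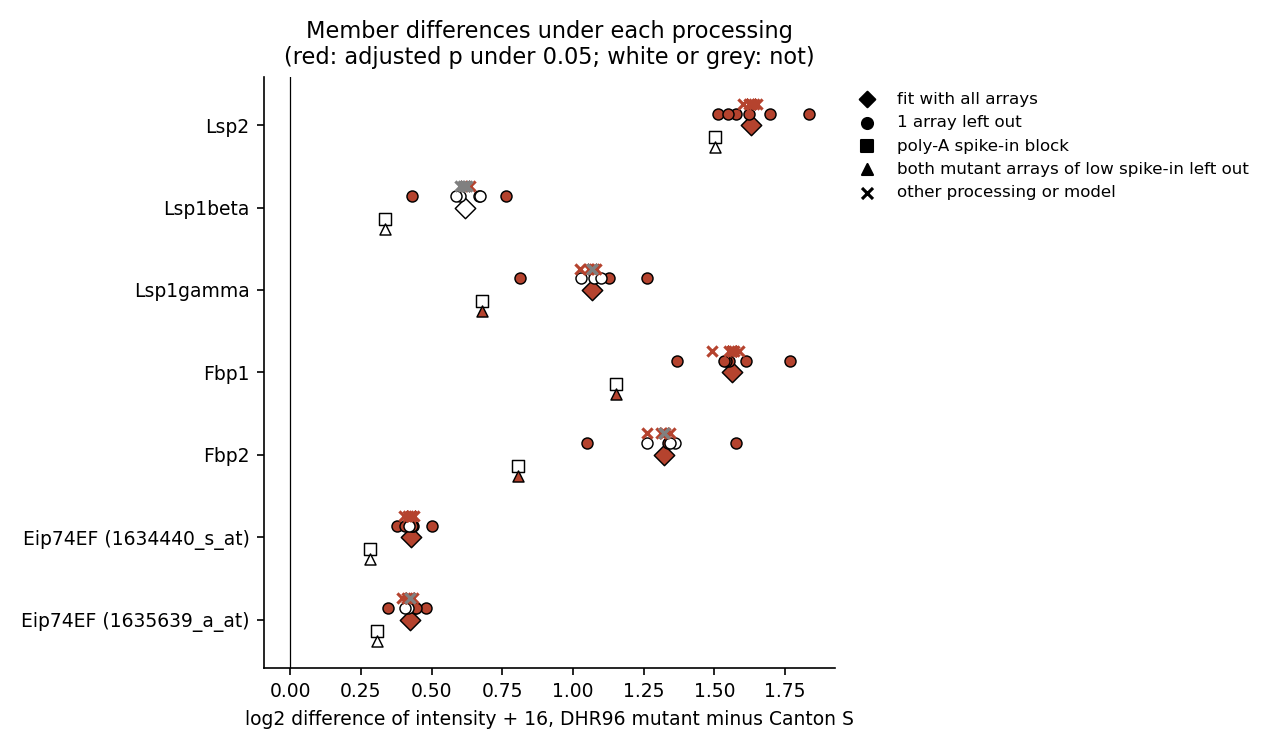
Log2 difference, DHR96 mutant minus Canton S, of each probe set with all arrays (diamonds), with 1 array left out (circles), with the poly-A spike-in block (squares), without the 2 mutant arrays of low spike-in (triangles) and under other processing (crosses); red marks a limma adjusted p under 0.05. All values lie above 0, from 0.28 for Eip74EF to 1.83 for Lsp2, and squares and triangles lie lowest in each row.

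Other genes of the pathways were read from the same deposited table, which names only genes the authors selected. A list of 25 genes held hexamerins and larval fat body products, and also salivary gland genes (Sgs) and the haemocyte gene Hml. Of these 25, 6 are in the table, of which 5 rose and Lsp1beta did not pass. The one that is no member is Obp99b, an odorant-binding protein gene, at 3397, 4183 and 4008 on DHR96 mutant replicates 1, 2 and 3, against 2029, 2806 and 1916 on the Canton S arrays (log2 difference 0.79, limma adjusted p = 0.0224). Like Lsp2, it was highest on replicate 2 of each group.

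Of 43 genes of the ecdysone response, 3 are in the table. Besides Eip74EF these are Eig71Ec and Eig71Ef, late ecdysone-induced genes of the prepupal salivary gland cluster at 71E. Eig71Ec read 272, 378 and 306 on DHR96 mutant replicates 1, 2 and 3, against 210.1, 230 and 221 on the Canton S arrays, and rose (log2 difference 0.49, limma adjusted p = 0.0378). Eig71Ef read 457, 490.4 and 308 on the mutant arrays, against 272, 267 and 281 on the Canton S arrays, with a log2 difference of 0.56 that did not pass (limma adjusted p = 0.0670). Neither shared the array order of the fat body proteins, since replicate 2 was their highest mutant array. None of 10 ecdysone synthesis genes found in the RefSeq gene table is in the authors' table, so their values were not read.

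Of 8 genes for storage, yolk and other products of the adult fat body, 3 are in the table. Obp99b and tobi, an alpha-glucosidase gene, rose (0.48 on the log2 scale for tobi), while takeout, which encodes a ligand-carrier protein of the adult fat body, fell by 0.53 on the log2 scale with a limma adjusted p of 0.00196.

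Markers of other tissues were also read from the deposited table, which lists 180 of its 260 probe sets as higher and 80 as lower. Since the authors selected it on these arrays, that choice fixes the counts and sums below in large part. Of 9 epidermis and cuticle markers, 4 are in the table and all 4 rose, and their summed intensity was 9314 to 12150 on the arrays labelled DHR96 mutant, against 4987 to 6162 in Canton S. The chitinase gene Cht5 read 2118, 3123 and 3608 on DHR96 mutant replicates 1, 2 and 3, the array order of Fbp1 and Fbp2. Of 7 midgut markers, 6 are in the table and all 6 fell, with a summed intensity of 15370 to 19270 on the arrays labelled DHR96 mutant, against 31470 to 33850 in Canton S. The accessory gland gene Acp76A, 1 of 4 testis and accessory gland markers, rose by 0.43 on the log2 scale, and PPO1, 1 of 5 haemocyte markers, fell by 0.49 on the log2 scale. None of 6 larval salivary gland markers and none of 5 muscle markers is in the table. Their values were not read, so this does not show that they were unchanged. The part of these tissues in the member values was not tested.

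The ontology terms of the deposited table set the serum and fat body proteins together. Nutrient reservoir activity is given to 4 of its 260 probe sets, which are Lsp2, Lsp1beta, Lsp1gamma and Fbp2. The term lipid particle is given to 8 probe sets, of which 5 are those 4 and Fbp1. Eip74EF carries none of these terms. In the gene order of Release 6 of the fly genome, the nearest pair of members is Lsp2 and Fbp1, 197 places apart among protein-coding genes, and the gene of the table nearest to any member is CG5080, 23 places from Lsp1beta.

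Likeness of profile was measured as the root mean square difference between log2(intensity + 16) profiles over the 6 arrays, each centred on its own mean, against 250 other probe sets of the table that name 1 gene. Nearest to Lsp2 were CG7953 at 0.177, Npc1b at 0.239, CG4734 at 0.253, Smg6 at 0.258 and CG8534 at 0.292. Fbp1 lay close behind at 0.304, Fbp2 at 0.369, Lsp1gamma at 0.414 and Lsp1beta at 0.558. Npc1b encodes a midgut protein of sterol uptake and Smg6 a factor of nonsense-mediated mRNA decay. Nearest to the first Eip74EF probe set were Nna1 at 0.0327, spz3 at 0.0459, CG12010 at 0.0460, CG5697 at 0.0478 and Cyp4s3 at 0.0503, all nearer than its own second probe set at 0.0765. Most of such a distance reflects the size of the group difference, and all profiles share the same 6 arrays.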

How the data were processed

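The members and gene lists were chosen with earlier results of these data known. Intensities on a linear scale were deposited for 18952 probe sets, of which 183 manufacturer's controls were set aside. The authors had normalized them between arrays, as nearly equal medians show. MAS5 is named in the submitters' processing notes without a version or a role, and the summary method and background correction are not given in the sources used here. Per the file headers, the authors' deposited table gives a q-value in percent, a SAM score, its log2 numerator and a signed fold for 260 probe sets. Its numerator matched the mean log2 value of the arrays labelled DHR96 mutant minus that of Canton S within 5.68e-10. Of its probe sets, 252 were named by CG number or symbol through the RefSeq gene table, 3 name several genes and 5 kept the name in the file.

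The main model was limma 3.58.1 (R 4.3.3) on log2(intensity + 16) of 18769 probe sets, with no filter on low values, group as the only term and eBayes with an intensity trend. P-values are two-sided and Benjamini-Hochberg adjusted over all probe sets. Exact permutation tests compared members within arrays, in pairs taken in the order of their differences. All members are described, with the nearest profiles and the members of the fixed lists found in the table. The number of arrays limits the precision. No intensity filter was applied to the 7 probe sets here. All come from the authors' table, selected by fold and q-value on these same arrays. No sequences are shown, as none was used here.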

Additional observations from a re-analysis of the deposited data

How the results depend on the processing

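Under 16 alternatives, no member changed direction. Since the groups did not overlap, this was fixed in advance for all of them but quantile normalization and median centring. The number of members past the threshold was 6, and 6 or 7 with pseudocounts of 0 and 64, quantile normalization, median centring, no intensity trend and the dimmest 25% of probe sets left out. It was 4 with robust variances, 2 to 7 with 1 array left out and 0 with the poly-A spike-in block. In that block fit 6 members had an unadjusted limma p under 0.05, as did 1987 of all 18769 probe sets. The fit without both mutant arrays of low spike-in takes the spread from Canton S alone, so its calls carry no weight. Fbp1 kept its call under 15 of the 16, Lsp2 under 14, and Lsp1gamma and Fbp2 under 10 each. The Eip74EF probe sets kept theirs under 13 and 11. For Fbp1, Lsp1gamma and Fbp2 the count includes the fit without both mutant arrays of low spike-in. These counts therefore do not rank Fbp1 above Lsp2. Lsp1beta passed under 4, with limma adjusted p from 0.0416 to 0.551. The total over all probe sets, 1306, was 813 with no intensity trend, 31 with the spike-in block, 62 without those mutant arrays and 287 to 803 with 1 array left out; with fewer arrays or more terms, fewer degrees of freedom remain. With the replicate number as a block, 240 probe sets and 3 members passed. The labels do not say whether the numbers pair the samples. Same-numbered arrays had deviations correlated at 0.19, -0.23 and -0.24 across probe sets. For differently numbered arrays the range was -0.21 to 0.30, so these values cannot settle it. Higher calls made up 47.2% of the total, and 57.6% after quantile normalization, 58.7% with no intensity trend and 56.9% to 64.1% with 1 array left out. Intensities never reach 0, so the change of a dim probe set may be understated.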
